A study of Bos taurus with 6 samples.

Results

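The microRNAs (miRNAs) described here lie in the imprinted DLK1-DIO3 domain and are miR-134, miR-299, miR-329a, miR-412, miR-485, miR-495, miR-541, miR-543, miR-654 and miR-668-3p. They were taken by name, as the known miRNA rows with one of 14 names (these, with miR-668 in either arm, and miR-323, miR-329b, miR-409 and miR-494) that the table does not place in the mir-154, mir-368 or mir-379 families. This gave 10 of the 879 known and predicted miRNA rows. The names miR-323 and miR-494 carry the mir-154 family in the table, miR-409 appears only as miR-409a and miR-409b, and miR-329b was not analysed here. Of the members, miR-329a, miR-495 and miR-543 share the table's family mir-329, while the others have a family of their own or, for miR-668-3p, none given.

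Small RNA of cultured Holstein cattle cells was sequenced, with 3 libraries labelled adipocytes and 3 labelled preadipocytes, all at passage 4 to 6 and all with adipose tissue as their source. Preadipocytes are cells committed to the fat lineage that have not yet filled with lipid. The protocol describes growth in F12/DMEM with serum and antibiotics and an induction with insulin, dexamethasone, rosiglitazone and IBMX, and its text is the same for both groups, so that only the cell type label and the sample title tell them apart. The labels name neither how long the induction lasted nor whether replicates are different animals or cultures, and p-values therefore measure the spread between these libraries, which may be technical.

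A miRNA guides the Argonaute protein to messenger RNAs that pair with its seed, near its 5′ end, and lowers their translation or stability. In the DLK1-DIO3 domain the protein genes, among them DLK1, an inhibitor of fat cell differentiation, are expressed from the paternal chromosome, and the long non-coding RNAs and miRNAs from the maternal one. Most of the domain's miRNAs lie close together and are thought to be processed from long shared transcripts. They are best known from brain, embryo and placenta, and several of those described here, such as miR-134 and miR-485, have been studied mainly at neuronal synapses.

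The miRNA rows held 14525284 to 22283754 reads per library. Levels are CPM (counts per 1000000) of the miRNA reads in the tested rows after scaling with edgeR's TMM factors, which ranged from 0.73 to 1.4, and 1 read was worth 0.0473 to 0.0814 CPM. A count of 0 allowed up to 0.142 to 0.244 CPM (3 reads, counting error only). Preadipocyte replicate 3 stood apart from the other preadipocyte libraries, with 5.29% of its table reads in exon, intron, repeat and intergenic rows against 18.5% and 18.9%. In adipocyte replicates 1, 2 and 3 this share was 10.4%, 12% and 8.21%, so without preadipocyte replicate 3 the groups do not overlap in it. Log2 differences of tested miRNAs that rest on preadipocyte replicate 3 are also given without that library, and the part of this share in them was not tested. As a check of the labels, miRNAs known from adipocytes (4 rows) summed to 5260 to 8220 CPM in the adipocyte and 2390 to 4030 CPM in the preadipocyte libraries, and none of these rows was at 0. Epithelial miRNAs (5 rows) stayed at 0.46 to 1.06 CPM in all libraries. Muscle miRNAs (5 rows) summed to 36.9 to 41.3 CPM in adipocytes and 29.8 to 65 CPM in preadipocytes. Neural miRNAs (3 rows) summed to 60.2 to 68.2 CPM in adipocytes and 53.7 to 95 CPM in preadipocytes, and the groups overlapped for the muscle and neural lists. These are sums over rows, which a single abundant row can carry. Mesenchymal miRNAs (7 rows, none at 0, miR-21-5p among them) summed to 507000 to 765000 CPM in adipocytes and 960000 to 1140000 CPM in preadipocytes, where a sum can pass 1000000 because of the TMM factors. Blood and endothelial miRNAs (8 rows, none at 0) summed to 43.6 to 69.1 CPM in adipocytes and 118 to 457 CPM in preadipocytes. The groups overlapped for neither the mesenchymal nor the blood and endothelial list, and the part of these lists in the results was not tested. In bulk RNA, fewer cells of a type and less RNA per cell cannot be told apart.

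All 10 members were scarce. Together they held 288, 246 and 246 reads in adipocyte replicates 1, 2 and 3, against 118, 93 and 137 in the preadipocyte ones, which was 0.000615% to 0.00192% of the miRNA reads of a library. Summed, they reached 12.8 ± 1.37 CPM in adipocytes against 8 ± 0.404 CPM in preadipocytes (SD, n = 3 each), a log2 ratio of 0.68. The lowest adipocyte library, at 11.6 CPM, lay above the highest preadipocyte library, at 8.37 CPM. The size of this ratio moved with the scaling, from 0.39 with upper-quartile factors to 1.32 with library totals alone, and its direction did not.

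The 4 members miR-543, miR-495, miR-299 and miR-485 supplied 91.9% of these reads and were the ones that passed edgeR's default filter on low counts. None of the 4 passed an adjusted p of 0.05 in edgeR's quasi-likelihood test with Benjamini-Hochberg (BH) adjustment over all 414 tested miRNAs, of which 26 (6.28%) passed. At an unadjusted p under 0.05 the count was 1 of 4, miR-543, against 34.1% of the tested miRNAs. DESeq2 called 0 of the 5 members to which it gave an adjusted p, and 22% of all such rows. Estimates were positive for miR-543, miR-495 and miR-299 and negative for miR-485 (50% of all tested miRNAs were positive), with a median log2 difference of adipocytes over preadipocytes of 0.82, beside -0.02 for all tested miRNAs. A filter that keeps a miRNA when 1 group reaches the minimum favours those that differ, so these counts describe the 4 and not the 10.

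**Figure D1:**
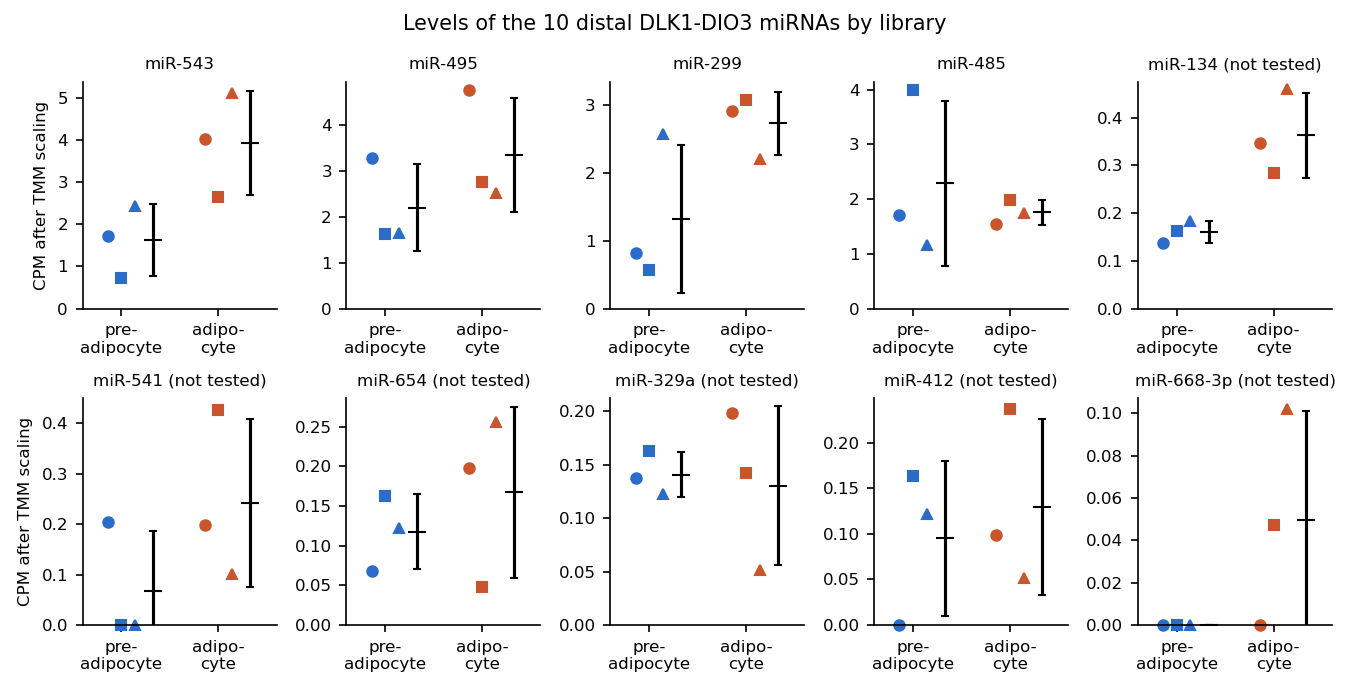
Levels in CPM after TMM scaling (vertical axes, linear from 0, a separate scale per panel) of each member in the preadipocyte (blue) and adipocyte (orange) libraries. Circles, squares and triangles are replicates 1, 2 and 3, and the black bars are the mean ± SD of 3 libraries, cut at 0. The groups lie apart for miR-543 and miR-134 and overlap for the other 8 members.

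The table's mir-329 family holds miR-543 and miR-495, whose genes are neighbours in RefSeq (assembly ARS-UCD2.0), and miR-329a. The member with the highest mean adipocyte level was miR-543, whose adipocyte replicates 1, 2 and 3 held 81, 56 and 100 reads (4.02, 2.65 and 5.11 CPM), against 25, 9 and 40 in the preadipocyte replicates (1.71, 0.733 and 2.44 CPM). Every adipocyte library lay above every preadipocyte library, though the lowest of the former and the highest of the latter were only 2.65 and 2.44 CPM, and the same held for 24.2% of all tested miRNAs. The log2 difference of miR-543 was 1.26 (SE 0.50, edgeR BH-adjusted p = 0.132). It passed with library totals alone (1.88, edgeR BH-adjusted p = 0.0287, where 23.4% of miRNAs passed) and with limma on the deposited TPM (1.42, limma adjusted p = 0.0282, where 28% passed), the scalings under which the median of all tested miRNAs moved to 0.62 and 0.46.

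The neighbouring miR-495 had 96, 58 and 49 reads in the adipocyte replicates (4.76, 2.75 and 2.51 CPM), against 48, 20 and 27 in the preadipocyte replicates (3.28, 1.63 and 1.65 CPM). Replicate 1 was the high library in both groups, and preadipocyte replicate 1 lay above adipocyte replicates 2 and 3. The log2 difference of miR-495 was 0.61 (SE 0.44, edgeR BH-adjusted p = 0.339), which was 0.27 without adipocyte replicate 1 and 1.01 without preadipocyte replicate 1.

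Although the genes of miR-543 and miR-495 lie side by side, their reads did not keep 1 proportion. The number of miR-543 reads per miR-495 read was 0.844, 0.966 and 2.04 in adipocyte replicates 1, 2 and 3 and 0.521, 0.45 and 1.48 in the preadipocyte replicates. Replicate 3 had the highest ratio in both groups and the groups overlapped, so that the spread among libraries was wider than the distance between group means of 1.28 ± 0.658 and 0.817 ± 0.575 (SD, n = 3 each).

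The third row of that family, miR-329a, was close to the limit of the depth, with 4, 3 and 1 reads in the adipocyte and 2, 2 and 2 reads in the preadipocyte replicates. Relative to scaled depth the summed reads had a ratio of 0.948, with a 95% interval from 0.289 to 3.32 that covers counting error only (exact, from the binomial split of the reads). A difference in miR-329a up to about these bounds was not detectable at this depth. Summed over the family, the 3 rows had 181, 117 and 150 reads in adipocytes and 75, 31 and 69 reads in preadipocytes, a log2 difference of 1.13 (SE 0.38) with an edgeR BH-adjusted p of 0.0866, which missed the threshold.

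Near the proximal end of the main cluster, next to miR-411a, lies miR-299. Its row had 59, 65 and 43 reads in the adipocyte replicates (2.92, 3.08 and 2.2 CPM), against 12, 7 and 42 in the preadipocyte replicates (0.82, 0.57 and 2.57 CPM). Preadipocyte replicate 3 reached the adipocyte range and the other preadipocyte libraries did not. The log2 difference of miR-299 was 1.03 (SE 0.59, edgeR BH-adjusted p = 0.242) with all libraries. Without preadipocyte replicate 3 it was 1.96 (SE 0.36) and passed (edgeR BH-adjusted p = 0.0198), in a fit in which 31.8% of all tested miRNAs passed. This was the only one of the 4 tested members to pass without that library; miR-543 was then at 1.67 with an edgeR BH-adjusted p of 0.0512.

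The gene of miR-299 overlaps that of miR-299-2, so the division of reads between these names is uncertain. The miR-299-2 row had 21, 12 and 10 reads in adipocytes and 3, 14 and 5 reads in preadipocytes, and here preadipocyte replicate 2, not replicate 3, was the high one. The sum of both rows was 80, 77 and 53 reads in adipocytes and 15, 21 and 47 reads in preadipocytes. The sum differed by 0.86 on the log2 scale (SE 0.44), with an adjusted p of 0.192 in edgeR (BH).

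A separate row for the Rfam family mir-299 gave more reads than the miRNA rows. It held 247, 201 and 189 reads in adipocytes and 42, 28 and 92 in preadipocytes. The groups did not overlap, as was so with adipocytes higher for 24.2% of the tested miRNAs. That share was not computed with the Rfam rows kept. When the Rfam and piRNA rows were kept in the fit, in which 3.48% of rows passed, its log2 difference was 1.80 (SE 0.43) and missed the threshold with an edgeR BH-adjusted p of 0.0674. Preadipocyte replicate 3 was again the highest of its group, and the Rfam rows were not fitted without it. Whether the Rfam rows share reads with the miRNA rows is not stated by the labels or the table, so this row is not independent support for miR-299.

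**Figure D2:**
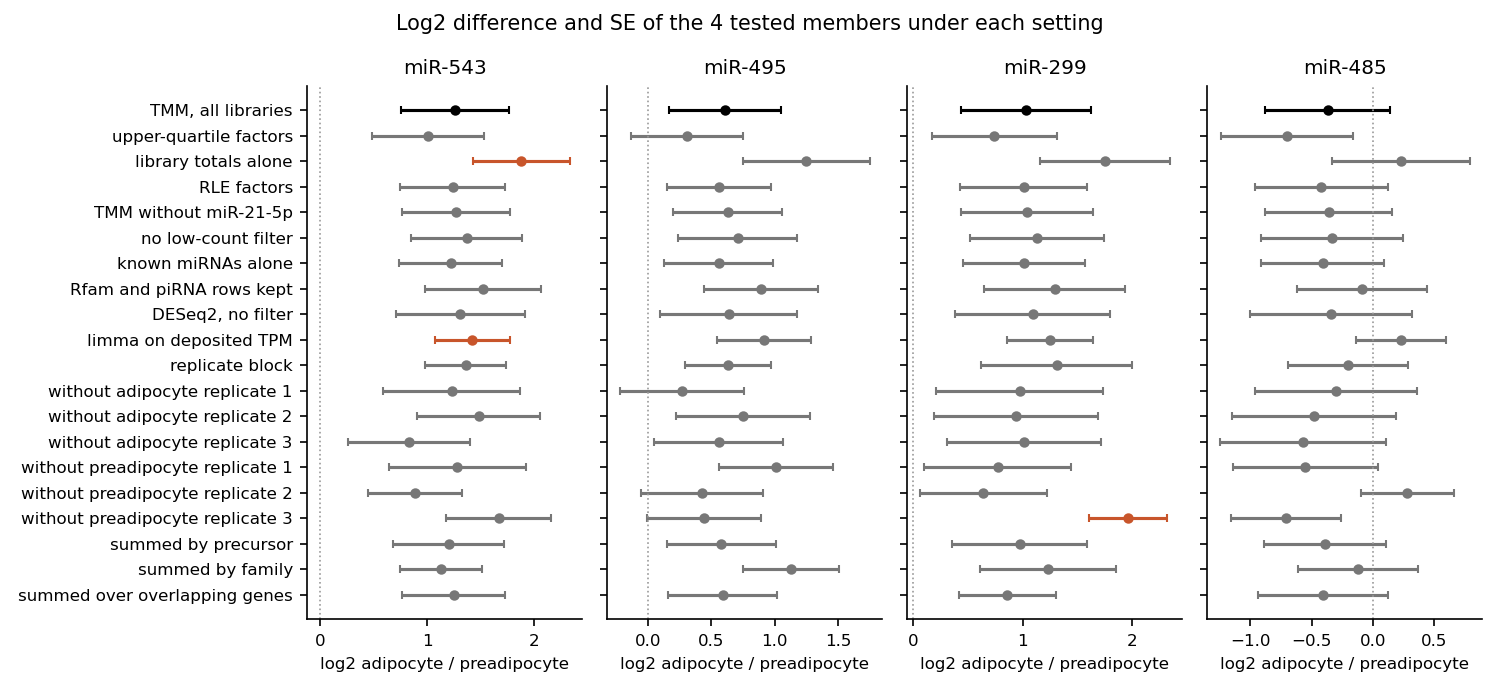
Log2 difference of adipocytes over preadipocytes (horizontal axes, points with SE bars) of the 4 tested members under each setting (rows). Orange marks an adjusted p under 0.05 in that setting and black the reported fit; miR-543 passes with library totals alone and with limma on the deposited TPM, miR-299 without preadipocyte replicate 3, and miR-485 changes sign in 3 settings.

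Further along the domain the genes of miR-134, miR-668 and miR-485 follow one another. The only tested one of these, miR-485, had 31, 42 and 34 reads in the adipocyte replicates (1.54, 1.99 and 1.74 CPM), against 25, 49 and 19 in the preadipocyte replicates (1.71, 3.99 and 1.16 CPM). The adipocyte libraries lay close together, within the range set by the preadipocyte libraries, of which replicate 2 was the high one. The log2 difference of miR-485 was -0.37 (SE 0.51, edgeR BH-adjusted p = 0.618). It became 0.28 without preadipocyte replicate 2, 0.23 with library totals alone and 0.23 with limma on the deposited TPM, so that no direction can be given for miR-485.

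The neighbouring miR-134, studied for its part in the size of dendritic spines, had 7, 6 and 9 reads in the adipocyte and 2, 2 and 3 reads in the preadipocyte replicates. The groups did not overlap (0.284 to 0.46 CPM against 0.137 to 0.183 CPM), and adipocytes were higher without overlap in 14.3% of all rows without the filter. Without the low-count filter the log2 difference of miR-134 was 1.22 (SE 0.74, edgeR BH-adjusted p = 0.347, where 2.16% of 879 rows passed). The ratio of the summed reads of miR-134 was 2.23, with a 95% interval for counting error from 0.922 to 6.19. In the Rfam row mir-134 the counts were 17, 21 and 14 in adipocytes and 0, 0 and 11 in preadipocytes, again with preadipocyte replicate 3 as the high library of its group (log2 difference 2.08, SE 1.44, edgeR BH-adjusted p = 0.38 with the Rfam rows kept).

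Between miR-134 and miR-485, miR-668-3p was at the edge of detection, with 0, 1 and 2 reads in adipocytes and 0 in each preadipocyte library. Both groups were at or below 3 reads in all, and no fold is given. The Rfam row mir-668 had 3, 3 and 2 reads in adipocytes and 0, 2 and 1 in preadipocytes.

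The remaining members, miR-541, miR-412 and miR-654, had at most 9 reads in any library. The counts of miR-541 were 4, 9 and 2 in adipocytes and 3, 0 and 0 in preadipocytes. The ratio of its summed reads was 3.56, with a counting interval from 1.01 to 19.2 that leaves out the spread between libraries, and the log2 difference without the filter was 1.83 (SE 1.32, edgeR BH-adjusted p = 0.433). Preadipocyte replicate 1, at 0.205 CPM, lay above adipocyte replicates 1 and 3.

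For miR-412, near the distal end of the cluster between the genes of miR-409b and miR-369, the counts were 2, 5 and 1 in adipocytes and 0, 2 and 2 in preadipocytes (ratio of summed reads 1.42, counting interval 0.381 to 6.45). For miR-654, whose gene lies among those of the miR-376 group, they were 4, 1 and 5 in adipocytes and 1, 2 and 2 in preadipocytes (ratio 1.42, counting interval 0.443 to 5.3). The groups overlapped for both. The Rfam row mir-541 overlapped as well, at 18, 8 and 26 reads in adipocytes and 11, 1 and 23 in preadipocytes. That of mir-654 had 1, 7 and 8 reads in adipocytes and 0, 0 and 7 in preadipocytes, and that of mir-412 had 1 read in the whole table. Without the filter, adjusted p-values of the 6 members outside the tested rows ran from 0.347 to 0.992 in edgeR's test (BH).

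Read levels ordered the tested members as miR-543 (3.93 ± 1.23 CPM), miR-495 (3.34 ± 1.24 CPM), miR-299 (2.73 ± 0.469 CPM) and miR-485 (1.75 ± 0.226 CPM) in adipocytes (SD, n = 3). In preadipocytes the order was miR-485 (2.29 ± 1.5 CPM), miR-495 (2.19 ± 0.948 CPM), miR-543 (1.63 ± 0.858 CPM) and miR-299 (1.32 ± 1.09 CPM). These CPM values are not corrected for length. In preadipocytes every neighbour in the order was closer than the spread of either. In adipocytes this was so for miR-543 against miR-495, and the ranges of miR-495 and miR-299 overlapped (2.51 to 4.76 and 2.2 to 3.08 CPM), while every library of miR-299 (at least 2.2 CPM) lay above every library of miR-485 (at most 1.99 CPM).

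The rest of the domain served as the nearest comparison, and 40 of its 47 other miRNA rows were tested. Of these, 38 had a positive estimate, and 7 rose (miR-136, miR-154a, miR-376a, miR-376b, miR-410, miR-411c-3p and miR-487a), 0 fell and 33 did not pass, where 6.28% of all tested miRNAs passed. Dropping preadipocyte replicate 3 kept all 7, and 26 of the domain's other rows, these 7 among them, then passed, beside 31.8% of all tested miRNAs. Of the 7, 1 passed when adipocyte replicate 3 was dropped (beside 1.73% of all) and 0 when any remaining library was (0.214% to 0.911%). With so few calls in the whole fit, these counts say little of the 7 themselves. With all libraries, 19 passed in DESeq2, 29 with library totals alone, 34 with limma on TPM and 0 with replicate number as block. The shares of all tested miRNAs were then 22%, 23.4%, 28% and 0.242%. The median log2 difference of the 40 was 1.24, against 0.82 for the 4 tested members. The groups lay apart with adipocytes higher for 34 of the 40 other rows and for 1 of the 4 members, a share near the 24.2% of all tested miRNAs, so that nothing is read from the members' count. Preadipocyte replicate 3 was the highest preadipocyte library in 30 of the 40 other rows, in 2 of the 4 members (miR-543 and miR-299) and in 175 of all 414 tested miRNAs.

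**Figure D3:**
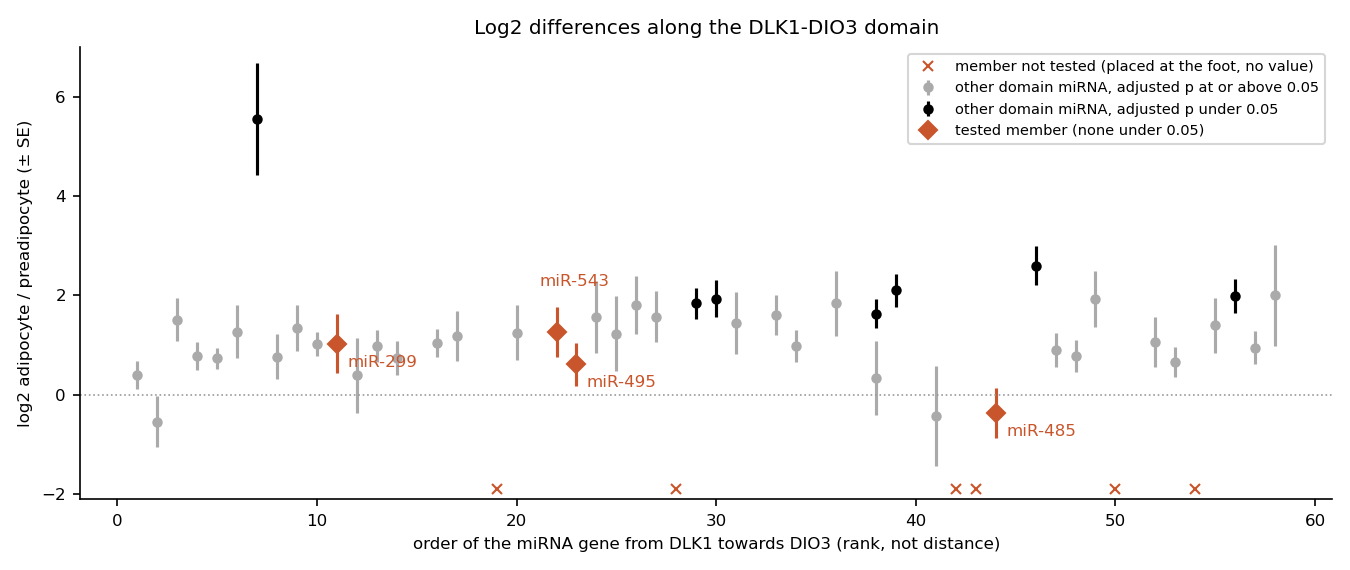
Log2 difference of adipocytes over preadipocytes with SE (vertical axis) against the order of the miRNA genes from DLK1 towards DIO3 in the RefSeq table (horizontal axis, rank and not distance). Orange diamonds are the 4 tested members, crosses at the foot mark the places of the 6 members without a test, and black points are the 7 other miRNAs past the threshold; miR-485 is among the few points below 0.

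Counted against the rest of the domain within each library, which needs no scaling between libraries, the summed reads of the members were lower in adipocytes. The groups did not overlap, a difference that was not tested. Most of that denominator was miR-127 and miR-411a, which held 75.6% to 84.6% of the other reads of the domain in a library. All 10 together had 3.97, 3.11 and 3.53 reads per 1000 reads of the other DLK1-DIO3 miRNAs in adipocyte replicates 1, 2 and 3 and 4.74, 4.07 and 4.18 in the preadipocyte replicates. The highest adipocyte value lay just below the lowest preadipocyte value. This separation was thin. The share of miR-485 in the members' reads was 10.8%, 17.1% and 13.8% in adipocytes and 21.2%, 52.7% and 13.9% in preadipocytes. Without the reads of miR-485 the groups overlap, and the same holds without those of miR-299 or without those of miR-495. The separation of the sum therefore singles out no member and does not describe each of them. Without miR-127 and miR-411a in the denominator, a choice made after seeing the data, the values were 16.3, 14.9 and 17 in adipocytes and 29.6, 26.4 and 20.6 in preadipocytes. These were again apart with miR-485 included. The other miRNAs of the domain, with both included, had 24870, 22851 and 32757 unscaled reads in preadipocytes and 72612, 79062 and 69601 in adipocytes. Library sizes after TMM scaling were also unlike, at 12277516 to 16365882 in preadipocytes and 19554647 to 21123604 in adipocytes.

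Among the 4 tested members the ratio was apart between the groups only for miR-485. It was 0.427, 0.531 and 0.488 reads of miR-485 per 1000 in adipocytes and 1.01, 2.14 and 0.58 in preadipocytes, a log2 ratio of the means of -1.37, or -0.72 without preadipocyte replicate 2. With miR-127 and miR-411a left out of the denominator, the miR-485 values were 1.75, 2.54 and 2.34 in adipocytes and 6.28, 13.9 and 2.86 in preadipocytes, and 5 of the 38 remaining rows were lower without overlap. With both kept, of the 40 other rows, set against the rest of the domain in the same way, 3 (7.5%) were lower without overlap. A ratio of this kind shows unequal change and not that miR-485 itself did not change. The ratios of miR-543 (1.09 ± 0.367 against 0.875 ± 0.429), miR-299 (0.751 ± 0.115 against 0.69 ± 0.519) and miR-495 (0.919 ± 0.347 against 1.21 ± 0.624) differed between adipocytes and preadipocytes by less than the spread between libraries (SD, n = 3 each).

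**Figure D4:**
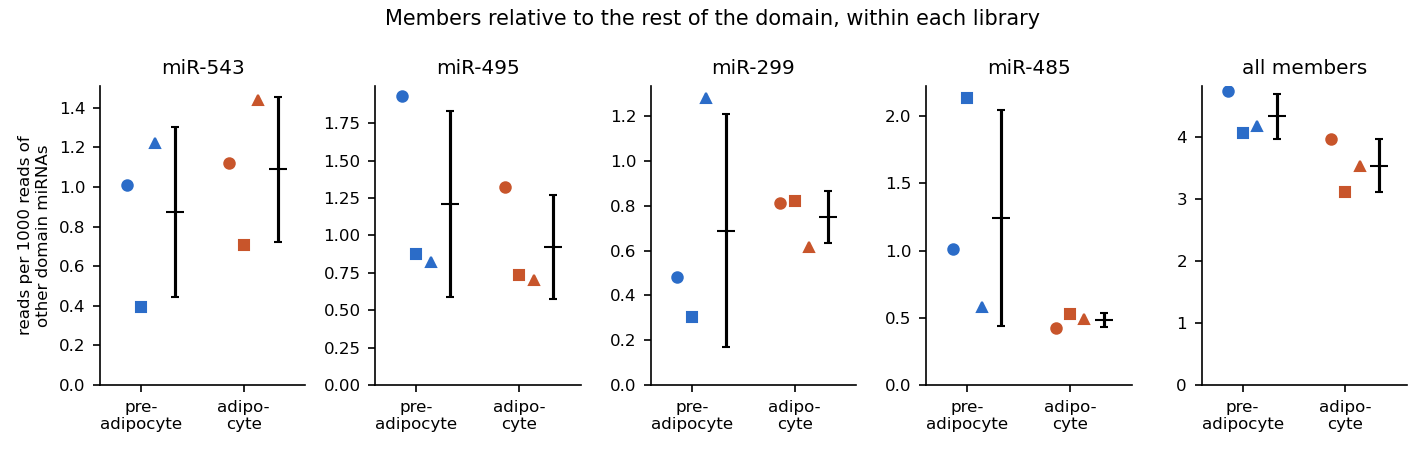
Reads of the tested members, and of all 10 members, per 1000 reads of the other DLK1-DIO3 miRNAs of the same library, mostly miR-127 and miR-411a (vertical axes, linear from 0), in preadipocytes (blue) and adipocytes (orange). Circles, squares and triangles are replicates 1, 2 and 3, with black bars for the mean ± SD of 3 libraries; the adipocyte libraries lie below the preadipocyte ones for miR-485 and for all members summed, and overlap with them for miR-543, miR-495 and miR-299.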

How the data were processed

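The deposited table has 2213 small RNA rows with counts and TPM for 6 libraries, per the file headers. The counts are the authors' whole-number reads without normalization. The deposited TPM values are the count divided by 1 constant per library, with 0 written as 0.001. The submitters' processing notes name Bowtie2, and for the build, miRNA release and counting rule the entry is: not given in the sources used here. Counts of the 879 known and predicted miRNA rows were tested with edgeR 4.0.16 in R 4.3.3 (TMM, filterByExpr with its minimum count of 10, glmQLFTest, two-sided, group as the only term, BH adjustment, threshold 0.05), leaving 365 known and 49 predicted miRNAs. The 4 genome-feature rows, which name no gene, took 5.29% to 18.9% of the table's reads and stayed out. Alternatives used DESeq2 1.42.0 and limma 3.58.1 on log2 of TPM plus 0.5. The edgeR step was run on simulated data with larger changes than those estimated for the tested members, so it does not show whether differences of their size are detectable. Of 771 known rows, 703 matched a RefSeq gene of ARS-UCD2.0, used for names, order and overlap only. The other DLK1-DIO3 miRNAs came from a list of names, without 2 rows of miR-345, whose gene lies outside DLK1 to DIO3 there. Per-library values were given for all members, since none passed. No member had rows for both arms, so arm usage was not tested. The members and lists were chosen with earlier results of these data known. Plots were drawn with matplotlib 3.10.9 in Python 3.11.15.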

Additional observations from a re-analysis of the deposited data

How the results depend on the processing

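Depth limits what can be said of 6 of the 10 members, which had fewer than 10 reads in every library. Among the 4 tested ones, the call of miR-543 changed with the scaling and that of miR-299 with the libraries kept. Neither miR-495 nor miR-485 passed in any setting. With a minimum of 10 CPM no member was left. The directions of miR-543, miR-495 and miR-299 held under each alternative run; that of miR-485 did not (0.23 with library totals alone, 0.23 with limma on TPM, 0.28 without preadipocyte replicate 2). The count of members past the threshold, 0, was 1 with library totals alone (miR-543, 1.88), 1 with limma on TPM (miR-543, 1.42) and 0 to 1 when 1 library was left out (miR-299, without preadipocyte replicate 3). Leaving out 1 library gave log2 differences of 0.83 to 1.67 for miR-543, 0.27 to 1.01 for miR-495, 0.64 to 1.96 for miR-299 and -0.71 to 0.28 for miR-485. Of all tested miRNAs 6.28% passed (16 higher, 10 lower), and the share was 11.8% (15 and 34) with upper-quartile factors, 23.4% (88 and 9) with library totals alone, 16.2% (27 and 32) with known miRNAs alone, 2.16% (11 and 8) without the filter, 17.2% (15 and 21) with the 10 CPM minimum, 3.48% (25 and 8) with the Rfam and piRNA rows kept, 22% (59 and 57) with DESeq2 and 28% (105 and 11) with limma on TPM. Without 1 library it ran from 0.214% to 31.8%; it was 31.8% (64 and 84) without preadipocyte replicate 3, 1.73% without adipocyte replicate 3, 0.911% without preadipocyte replicate 1 and 0.214%, 0.215% and 0.221% (1 miRNA each) when adipocyte replicate 1, adipocyte replicate 2 and preadipocyte replicate 2 were dropped. The cause was not tested. Upper-quartile factors moved the median of all tested miRNAs from -0.02 to -0.31. The median of the tested members, 0.82, was 1.5 with library totals alone, and 0.54 to 1.06 without 1 library; that of the other DLK1-DIO3 miRNAs, 1.24, was 1.93 and 1.02 to 1.74. The summed level of the members, 0.68, was 0.39 with upper-quartile factors, 1.32 with library totals alone and 0.5 to 0.75 without 1 library. Sums over overlapping genes, and the ratios to the rest of the domain without each library in turn, were chosen after seeing the data.

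With the replicate number of the titles as a block, 1 miRNA in all (0.242%), 0 members and 0 of the 7 other DLK1-DIO3 miRNAs passed, with log2 differences of 1.36 for miR-543, 0.63 for miR-495, 1.31 for miR-299 and -0.2 for miR-485. Whether the numbers pair the libraries is not stated by the labels. The deviations of same-numbered libraries from their group means correlated at 0.04, -0.31 and 0.02, and no adipocyte library correlated best with its own number. With 3 libraries per group, such correlations cannot settle whether the libraries are paired.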
